A study of Homo sapiens with 15 samples.

Results

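DDHD1, UBA6, TSC22D2, WDR26, APPBP2, SENP2, PURA and DR1 are 8 protein-coding genes that were picked, by name, because their use of the distal poly(A) site moved in opposite directions in cells with a hairpin against a splicing factor and in cells with a hairpin against the poly(A)-binding protein PABPN1. They are 8 of the 13056 genes in the deposited table, and all 8 had a value in every library. The cells were HEK293T, a human embryonic kidney line, with a short hairpin RNA and no other treatment in the labels. The groups were shSF3B4, shU2AF2, shPABPN1, shPCBP2, shZNF384 and shHDAC1 with 2 libraries each, and shControl with 3 libraries, whose genotype is given as WT. The genes were chosen by their measured PDUI (defined below) in shSF3B4, shU2AF2, shPABPN1 and shControl. The labels do not give the number of hairpins per target, the number of clones or the time after knockdown. Nor do they say that replicates were independent cultures, so p-values measure only the spread between these libraries.

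Most human genes carry several poly(A) sites, and the choice among those in the last exon sets how much 3' UTR the messenger RNA keeps. Cleavage is guided by a hexamer, most often AAUAAA, that lies shortly before the cut. PABPN1 coats new poly(A) tails in the nucleus and is known to restrain weak proximal sites. SF3B4 is a subunit of the SF3b part of the U2 snRNP, U2AF2 recognises the polypyrimidine tract before an exon, and both are needed to define 3' splice sites. PCBP2 binds C-rich RNA, ZNF384 is a zinc finger protein that binds DNA, and HDAC1 is a histone deacetylase.

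The measurement was PDUI, an index of how much of a gene's messenger RNA ends at its distal poly(A) site, which the authors deposited as a fraction. At 1 all of it ends distally, and near 0 nearly all of it ends at a proximal site. PDUI does not give the amount of RNA, so neither the strength of a knockdown nor the markers of the cell line could be checked. Mean PDUI over the 11353 genes complete in all 15 libraries was 0.533 to 0.585 in the knockdown libraries, against 0.522, 0.560 and 0.561 in shControl replicates 1, 2 and 3. Replicate 1 of shControl thus stood below the other control libraries. Values without it stand beside the results they touch. Over all genes its removal changed the calls in shPABPN1 most, to 519 higher and 529 lower, against 490 and 89 with it. The names of the shControl libraries carry a suffix, nuc, that those of the knockdowns lack. If it marks another preparation, knockdown and preparation cannot be told apart in comparisons with shControl.

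The ends of the annotated transcripts are shown because the distal site is the one PDUI counts. Each line gives the last 30 bases of the member's transcript in GENCODE release 29 on GRCh38, 5′ to 3′, with the hexamer AATAAA or, where that is missing, ATTAAA in capitals. For TSC22D2 and DDHD1 the table names the same transcript version, and for the other 6 genes a later one, so their ends may differ.
DDHD1, chr14:53036745-53036774, minus strand: ATTAAAaaacacaaaagcaatatgtttctc
UBA6, chr4:67612652-67612681, minus strand: aaacAATAAActctgtagtgattctctaaa
TSC22D2, chr3:150466402-150466431, plus strand: taaattagaaataaAATAAAataatgtgtt
WDR26, chr1:224385143-224385172, minus strand: atccAATAAAcagaatgaatacctaaataa
APPBP2, chr17:60443149-60443178, minus strand: AATAAAtatagtgttcctgcattcatagtg
SENP2, chr3:185633522-185633551, plus strand: atttaccAATAAAttcatctctttaattca
PURA, chr5:140125590-140125619, plus strand: tgggaaacaagatgtcactagggaaaaaaa
DR1, chr1:93369469-93369498, plus strand: tattttataaagttgatttgtggtataggc
AATAAA stood in 5 of the 8 windows and either hexamer in 6, read on the transcript's strand. Among the 11114 coding transcripts of the table found in that release, 52.1% held AATAAA in the last 30 bases and 65.0% held either.

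In 3 of the genes another annotated coding transcript ends inside the same last exon, with a hexamer of its own. These ends are shown as annotated candidates for an upstream site, since the table does not say which proximal site its values refer to. They lie 7223 bases before the distal end in DDHD1, 6315 bases in TSC22D2 and 8330 bases in DR1.
DDHD1 upstream, chr14:53043968-53043997, minus strand: gtttttgataccATTAAAattttattctct
TSC22D2 upstream, chr3:150460087-150460116, plus strand: attttctgaaATTAAActgcagttttgttg
DR1 upstream, chr1:93361139-93361168, plus strand: atataggcAATAAAtatatatgctcagatc

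All 8 genes had long 3' UTRs. Length was not a criterion of their choice, but it went with calls in the knockdowns that chose them. Among the other coding genes, 14% with a 3' UTR of at least 3707 bases were called higher in shPABPN1, against 2.54% of the shorter. In shSF3B4, 3.15% and 0.665% were called lower, and 11.3% and 3.42% higher. The shared length is therefore not independent of the choice. The annotated lengths were 10469 bases in PURA, 10023 in DDHD1, 8859 in DR1, 7795 in TSC22D2, 6345 in UBA6, 4692 in WDR26, 4432 in APPBP2 and 3707 in SENP2. The median was 7070 bases over the 8 genes, against 1314 bases over all coding genes in the table. Even the shortest, that of SENP2, was at least as long as those of 85.4% of the coding genes. The stop codon lay in the last exon in each of the 8, and PURA has a single exon. The last exons held 3 (SENP2) to 14 (TSC22D2) copies of AATAAA, at a median of 0.887 per kb, against 1.02 per kb over all coding genes. Their GC content had a median of 35.9%, against 45.2% over all coding genes, with SENP2 the highest at 45.2%.

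**Figure D1:**
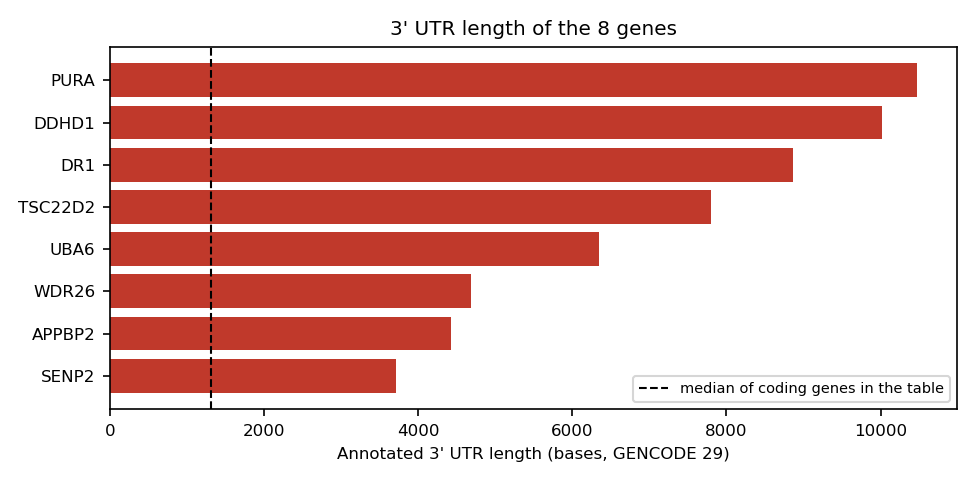
Annotated 3' UTR length in bases (horizontal axis) of each of the 8 genes, from GENCODE release 29, with the median of all coding genes in the table as a dashed line at 1314 bases. All 8 bars, from 3707 to 10469 bases, pass that line.

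The values in shSF3B4, shU2AF2, shPABPN1 and shControl chose the genes, so these contrasts are described without a test. All 8 genes stood lower in both shSF3B4 libraries than in every shControl library, by a median of −0.0692, while the median over all tested genes was 0.0117. In the same comparison 8.3% of all tested genes lay below the controls without overlap. All 8 stood higher in both shPABPN1 libraries than in every shControl library, by a median of 0.167 against −0.00933 over all genes, where 12.7% of all genes lay above the controls without overlap. In shU2AF2 the genes divided. DDHD1, UBA6, TSC22D2, WDR26 and PURA stood below every control library, SENP2 and DR1 stood above every one, and APPBP2 overlapped them. Of all genes, 9.83% lay below and 19.2% above the controls without overlap in shU2AF2. Without shControl replicate 1 the medians were −0.0775 in shSF3B4, −0.0475 in shU2AF2 and 0.16 in shPABPN1. Leaving out a control library cannot create an overlap, so only APPBP2 in shU2AF2 could have changed, and it still overlapped. These values chose the genes, so they can only describe the label of genes moved oppositely by splicing factor and poly(A)-binding knockdowns. As a description, it applies to all 8 with respect to SF3B4 and to 5 with respect to U2AF2.

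**Figure D2:**
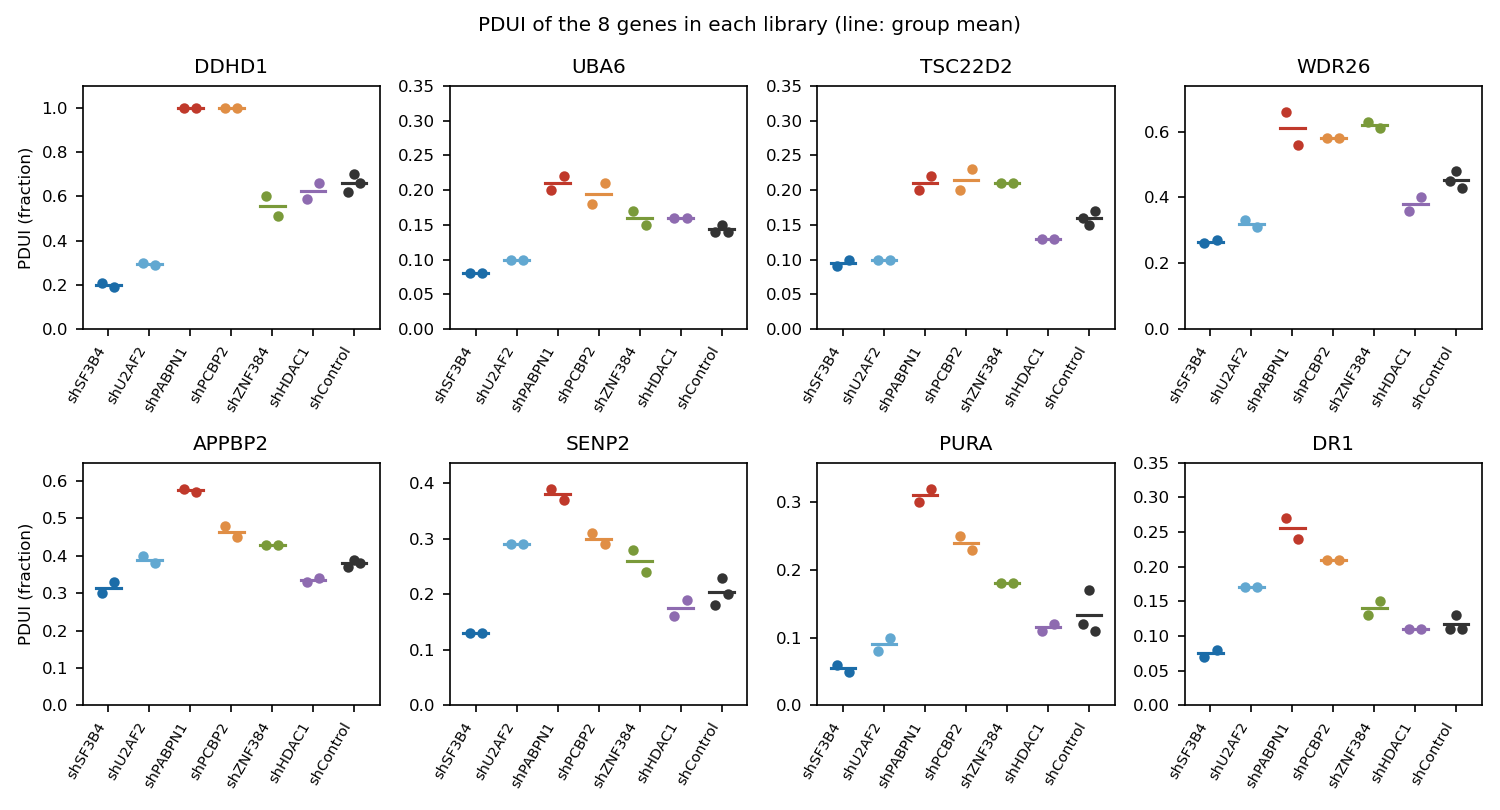
PDUI as a fraction (vertical axis, a separate scale for each gene) in every library of the 7 groups. Points are libraries and lines are group means. The points of shSF3B4 are the lowest or overlap the lowest in each panel, and those of shPABPN1 are the highest or overlap the highest.

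DDHD1, a phospholipase A1 that acts on phosphatidic acid, spanned the widest range of the 8. The last exon of DDHD1 spans chromosome 14 from 53036745 to 53046949, on the minus strand, and 366 of its bases overlap an exon of AL352979.2, an antisense gene. The labels do not say that the libraries kept the strand, so reads of the 2 genes may not be separable there. DDHD1 had PDUI values of 0.21 and 0.19 in shSF3B4, 0.30 and 0.29 in shU2AF2, 1 and 1 in shPABPN1, 1 and 1 in shPCBP2, 0.60 and 0.51 in shZNF384 and 0.59 and 0.66 in shHDAC1, against 0.62, 0.70 and 0.66 in shControl. Both the shPABPN1 and the shPCBP2 libraries sat at the upper limit of the scale, both splicing factor knockdowns sat below all other libraries, and shZNF384 and shHDAC1 overlapped each other.

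UBA6 encodes an enzyme that activates ubiquitin and the ubiquitin-like protein FAT10, with a last exon on chromosome 4 from 67612652 to 67619132, minus strand. Its PDUI was 0.08 and 0.08 in shSF3B4, 0.10 and 0.10 in shU2AF2, 0.20 and 0.22 in shPABPN1, 0.18 and 0.21 in shPCBP2, 0.17 and 0.15 in shZNF384 and 0.16 and 0.16 in shHDAC1, against 0.14, 0.15 and 0.14 in shControl. The libraries of shPABPN1 and shPCBP2 overlapped at the top, shSF3B4 stood alone at the bottom, and no group exceeded 0.22.

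WDR26 is a subunit of the CTLH ubiquitin ligase complex, with a last exon on chromosome 1 from 224385143 to 224389860, minus strand. Its PDUI was 0.26 and 0.27 in shSF3B4, 0.33 and 0.31 in shU2AF2, 0.66 and 0.56 in shPABPN1, 0.58 and 0.58 in shPCBP2, 0.63 and 0.61 in shZNF384 and 0.36 and 0.40 in shHDAC1, against 0.45, 0.48 and 0.43 in shControl. WDR26 was the gene with the highest group mean in shZNF384, which overlapped shPABPN1, and its shHDAC1 libraries lay between those of shControl and shU2AF2 without overlapping either.

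APPBP2 is a substrate receptor of cullin 2 ubiquitin ligases, with a last exon on chromosome 17 from 60443149 to 60447834, minus strand. Its PDUI was 0.30 and 0.33 in shSF3B4, 0.40 and 0.38 in shU2AF2, 0.58 and 0.57 in shPABPN1, 0.48 and 0.45 in shPCBP2, 0.43 and 0.43 in shZNF384 and 0.33 and 0.34 in shHDAC1, against 0.37, 0.39 and 0.38 in shControl. The shPABPN1, shPCBP2 and shZNF384 libraries formed 3 separate steps above the controls, and shHDAC1 overlapped shSF3B4 below them.

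SENP2 is a protease that removes SUMO from proteins, with a last exon on chromosome 3 from 185629782 to 185633551, plus strand. Its PDUI was 0.13 and 0.13 in shSF3B4, 0.29 and 0.29 in shU2AF2, 0.39 and 0.37 in shPABPN1, 0.31 and 0.29 in shPCBP2, 0.28 and 0.24 in shZNF384 and 0.16 and 0.19 in shHDAC1, against 0.18, 0.23 and 0.20 in shControl. The libraries of the 2 splicing factor knockdowns lay on opposite sides of the controls, and shU2AF2 overlapped shPCBP2.

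PURA, a protein that binds purine-rich DNA and RNA, has its single exon on chromosome 5 from 140114123 to 140125619, plus strand. Its PDUI was 0.06 and 0.05 in shSF3B4, 0.08 and 0.10 in shU2AF2, 0.30 and 0.32 in shPABPN1, 0.25 and 0.23 in shPCBP2, 0.18 and 0.18 in shZNF384 and 0.11 and 0.12 in shHDAC1, against 0.12, 0.17 and 0.11 in shControl. Replicate 2 of shControl stood above the other control libraries, and of the neighbours in the order of groups shControl and shHDAC1 alone overlapped.

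DR1 is a subunit of NC2, a repressor that binds the TATA-binding protein on DNA, and also belongs to the ATAC acetyltransferase complex. The last exon of DR1 spans chromosome 1 from 93360493 to 93369498, plus strand. Its PDUI was 0.07 and 0.08 in shSF3B4, 0.17 and 0.17 in shU2AF2, 0.27 and 0.24 in shPABPN1, 0.21 and 0.21 in shPCBP2, 0.13 and 0.15 in shZNF384 and 0.11 and 0.11 in shHDAC1, against 0.11, 0.13 and 0.11 in shControl. As in SENP2, the shSF3B4 libraries lay below and the shU2AF2 libraries above all control libraries, while shZNF384 and shHDAC1 overlapped the controls.

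TSC22D2 belongs to the TSC22 domain family, whose members are linked to osmotic stress signalling, with a last exon on chromosome 3 from 150458376 to 150466431, plus strand. Its PDUI was 0.09 and 0.10 in shSF3B4, 0.10 and 0.10 in shU2AF2, 0.20 and 0.22 in shPABPN1, 0.20 and 0.23 in shPCBP2, 0.21 and 0.21 in shZNF384 and 0.13 and 0.13 in shHDAC1, against 0.16, 0.15 and 0.17 in shControl. The libraries fell into a low set of both splicing factor knockdowns, which overlapped, and a high set of shPABPN1, shPCBP2 and shZNF384, which overlapped as well.

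Between the 2 splicing factor knockdowns the difference, shSF3B4 minus shU2AF2, was below 0 for all 8 genes, with a median of −0.065 and a range from −0.16 in SENP2 to −0.005 in TSC22D2, against a median of 0 over all tested genes. In 7 of the 8 genes the libraries did not overlap, where 19.2% of all tested genes lay lower without overlap. These libraries chose the genes, so no test is given. The difference of APPBP2 in shU2AF2 minus shControl was 0.01, and −0.0133 with libraries centred on their medians.

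The libraries of shPCBP2, shZNF384 and shHDAC1 did not choose the genes. The comparison of shPCBP2 with shControl asks whether a hairpin against an RNA-binding protein outside the choice also moves their site use. All 8 genes stood higher in both shPCBP2 libraries than in every shControl library, where 16.4% of all tested genes lay higher without overlap, and the median difference was 0.095 against 0.015 over all genes. Of the 8, limma called 7 higher and 0 lower at an adjusted p under 0.05, while 1.05% of all 12434 tested genes were called higher and 0.121% lower. Because the shControl libraries also entered the choice, this comparison is not fully independent of it.

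DDHD1 rose in shPCBP2 to 1 ± 0 (SD, n = 2), against 0.66 ± 0.04 in shControl (SD, n = 3), a difference of 0.34 (SE 0.038, limma, adjusted p = 0.00622). DR1 rose to 0.21 ± 0, against 0.117 ± 0.0115 in shControl, a difference of 0.0933 (SE 0.00999, limma, adjusted p = 0.005). PURA rose to 0.24 ± 0.0141, against 0.133 ± 0.0321 in shControl (limma, adjusted p = 0.0204). SENP2 and APPBP2 rose by 0.0967 and 0.085 (limma, adjusted p = 0.0361 and 0.0359), and TSC22D2 and UBA6 by 0.055 and 0.0517 (limma, adjusted p = 0.0362 and 0.0453). WDR26 had the second largest difference, 0.127 (SE 0.029), but did not pass (limma, adjusted p = 0.1). Without shControl replicate 1 the calls fell to 2 genes, DDHD1 and DR1, when 0.471% of all genes were called. With libraries centred on their medians all 8 differences stayed above 0, with a median of 0.0617. None was then called (limma, adjusted p = 0.0515 to 0.754, 4 genes called in all).

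In shZNF384 the genes parted. WDR26 rose to 0.62 ± 0.0141, against 0.453 ± 0.0252 in shControl, a difference of 0.167 (SE 0.029, limma, adjusted p = 0.0325), and TSC22D2 rose to 0.21 ± 0, against 0.16 ± 0.01 (SE of the difference 0.00972, limma, adjusted p = 0.0458). These were 2 of the 8 genes called higher, beside 1.44% of all 12541 tested genes, and 0 were called lower, beside 0.0638%. DDHD1 went the other way, with a difference of −0.105 (SE 0.038, limma, adjusted p = 0.267), and both of its shZNF384 libraries lay below every control library, as in 3.65% of all tested genes. WDR26, TSC22D2, APPBP2, SENP2 and PURA lay above every control library, as in 20.8% of all tested genes. The other 5 genes differed by 0.0167 (UBA6) to 0.0567 (SENP2) and did not pass (limma, adjusted p = 0.17 to 0.52). Without shControl replicate 1 neither call held (limma, adjusted p = 0.0933 for WDR26 and 0.119 for TSC22D2). Neither held without shControl replicate 3 (0.0949 and 0.0773), with the pair alone in the fit (0.205 and 0.182) or with a replicate block (0.181 and 0.143). Without shControl replicate 2 WDR26 held and TSC22D2 did not (limma, adjusted p = 0.0444 and 0.09). Both held on the logit scale and with complete genes alone. With libraries centred neither held, when TSC22D2 differed by 0.00167 and WDR26 by 0.118. The median over the 8 genes was then 0, and UBA6, PURA and DR1 turned to −0.0317, −0.00167 and −0.025.

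In shHDAC1 limma called 0 of the 8 genes, beside 3 of all 12371 tested genes (0.0243%). At an unadjusted p under 0.05 there were 3, all lower, beside 2.76% of all tested genes: WDR26 at −0.0733 (SE 0.029), APPBP2 at −0.045 (SE 0.0149) and TSC22D2 at −0.03 (SE 0.00972), each with both shHDAC1 libraries below all control libraries, where 7.07% of all tested genes lay lower without overlap. UBA6 lay above every control library, as in 8.18% of all tested genes. The differences of the other 5 genes ran from −0.035 in DDHD1 to 0.0167 in UBA6. None was called without shControl replicate 1 either, and 3 again had an unadjusted p under 0.05.

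**Figure D3:**
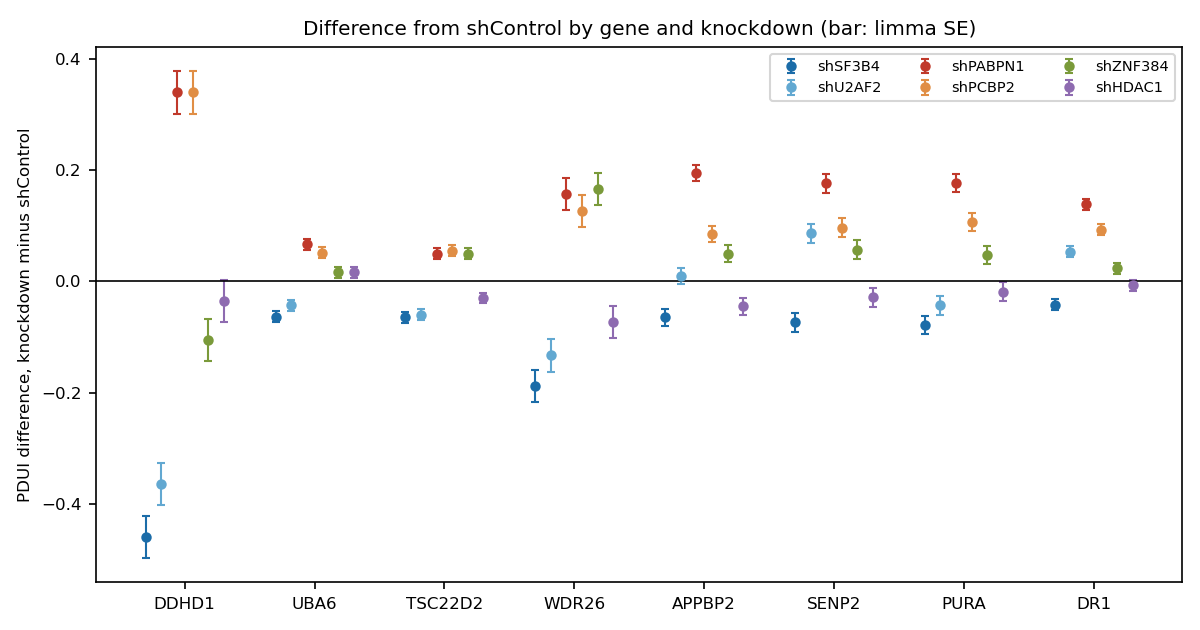
Difference in PDUI, knockdown minus shControl (vertical axis), for each gene and knockdown, with the standard error of the limma fit as bars. The shPABPN1 and shPCBP2 points lie above 0 in all 8 genes and the shSF3B4 points below 0 in all 8, while the shU2AF2 points lie on both sides.

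Differences among shPCBP2, shZNF384 and shHDAC1 are taken between libraries that did not enter the choice of the genes. Their standard errors are not independent of it, since the spread was estimated over all 15 libraries. A moderated F-test among these 3 groups called 7 of the 8 genes, beside 1.85% of all 12081 tested genes. The exception was UBA6 (limma, adjusted p = 0.214). The smallest adjusted p was that of DDHD1, 0.00279, followed by DR1 at 0.00692, and the largest among the 7 was that of SENP2, 0.0244. With 1 of the 6 libraries left out, 2 to 7 of the genes were called, and DDHD1 and DR1 were called each time. With libraries centred on their medians DDHD1 alone was called, when 0.124% of all genes were, and with these 3 groups alone in the fit none was (adjusted p = 0.0636 to 0.475).

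Of the 3 pairs of these groups, shPCBP2 and shHDAC1 differed most often. Both shPCBP2 libraries stood above both shHDAC1 libraries in all 8 genes, where 23.1% of all tested genes did, by a median of 0.125 against 0.005 over all genes. In that pair 7 of the 8 genes were called higher and 0 lower, beside 1.26% and 0.148% of all genes. The differences were 0.375 in DDHD1 (SE 0.0416, limma, adjusted p = 0.00377), 0.2 in WDR26 (SE 0.0318, adjusted p = 0.018), 0.13 in APPBP2, 0.125 in SENP2 and in PURA, 0.1 in DR1 and 0.085 in TSC22D2. UBA6 differed by 0.035 (SE 0.0107, limma, adjusted p = 0.2). The 7 calls fell to 1 (DDHD1) with centring, 3 with a replicate block and 0 with the pair alone in the fit. Some were also lost when 1 library was left out. With centring all 8 differences stayed above 0. In shZNF384 minus shHDAC1, 3 genes were called higher and 0 lower, beside 2% and 0.0734% of all genes: WDR26 by 0.24 (SE 0.0318, limma, adjusted p = 0.00853), APPBP2 by 0.095 (adjusted p = 0.0225) and TSC22D2 by 0.08 (adjusted p = 0.00862). None of these 3 calls held with centring, with the pair alone in the fit, without shHDAC1 replicate 1 or without shZNF384 replicate 1. TSC22D2 alone held with the block, and WDR26 alone without shZNF384 replicate 2.

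DDHD1 was the only one of the 8 called in shPCBP2 minus shZNF384, at 0.445 (SE 0.0416, limma, adjusted p = 0.00534), beside 0.0404% of all 12382 tested genes called higher and 0.0323% lower. That call held with centring and with each library left out, and did not hold with the replicate block (adjusted p = 0.125) or with the pair alone in the fit (adjusted p = 0.386). DR1 differed by 0.07 (SE 0.0109) and did not pass (limma, adjusted p = 0.0767). TSC22D2 differed by 0.005 (SE 0.0106) and WDR26 by −0.04 (SE 0.0318), neither passing (limma, adjusted p = 1 and 0.959), and the difference in TSC22D2 was 0.02 without shPCBP2 replicate 1 and −0.01 without replicate 2.

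**Figure D4:**
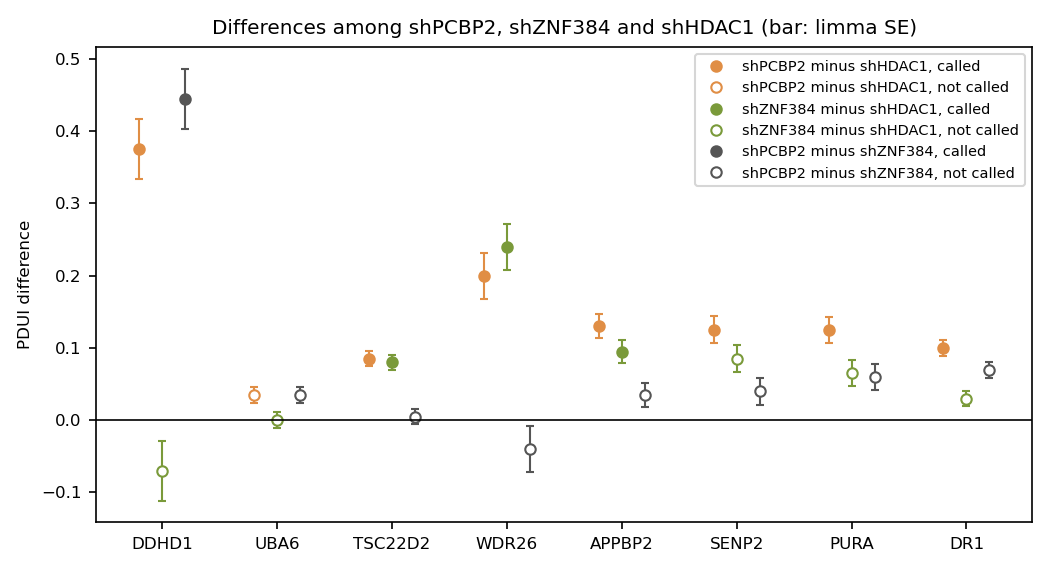
Differences in PDUI (vertical axis) between pairs of shPCBP2, shZNF384 and shHDAC1 for each gene, with the standard error of the limma fit as bars. Filled points were called at an adjusted p under 0.05 and open points were not. The shPCBP2 minus shHDAC1 points are filled for all genes but UBA6.

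Partner genes of the 8 were counted to see how far complexes and families share these changes. The lists held 85 genes, 75 of them in the table. In the comparisons with shControl, 3 of 75 tested partners rose and 0 fell in shSF3B4, beside 4.26% of all genes called higher and 1.16% lower. In shU2AF2 4 rose and 1 fell, beside 5.88% and 1.39%, and in shPABPN1 6 rose and 1 fell, beside 3.99% and 0.725%. Without shControl replicate 1, an alternative chosen after the data were seen, 5 rose and 5 fell in shPABPN1. In that fit 8.6% of all genes were called, 519 higher and 529 lower. In shPCBP2 1 of 74 rose and 0 fell, beside 1.05% and 0.121%. In shZNF384 and shHDAC1 0 of 75 and 0 of 74 were called by limma. Beside them stood 1.44% of all genes called higher in shZNF384 and 0.0243% called lower in shHDAC1. At an unadjusted p under 0.05 there were 14 and 2, beside 13.8% and 5.98% of all tested genes.

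In the family of PURA, PURB, its close relative among purine-rich element binding proteins, had PDUI values of 0.97 and 0.95 in shPABPN1 and 0.83 and 0.94 in shPCBP2, against 0.62, 0.65 and 0.64 in shControl. It rose by 0.323 in shPABPN1 and 0.248 in shPCBP2 (limma, adjusted p = 0.00225 and 0.0272), and the second call did not hold without shControl replicate 1 (adjusted p = 0.0802). In shSF3B4 PURB had 0.60 and 0.67, which overlapped the controls, where PURA lay below them. In shU2AF2 it had 0.77 and 0.74, above every control library, where PURA lay below every one. In shHDAC1 it had 0.44 and 0.45, below every control library, where PURA overlapped them. The last exon of PURB overlaps the antisense gene AC004854.2 and the microRNA gene MIR4657.

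Of 10 other CTLH subunits, 4 were called in at least 1 of the 6 comparisons with shControl, all higher, beside 9.77% of all 12805 genes called higher in at least 1. GID8, a core subunit, had 0.41 and 0.42 in shSF3B4, 0.40 and 0.39 in shU2AF2 and 0.31 and 0.26 in shPABPN1, against 0.21, 0.20 and 0.22 in shControl, and rose in all 3 (limma, adjusted p = 0.000156, 0.000153 and 0.0295). RMND5B, a RING subunit, rose to 0.33 ± 0 in shSF3B4 and 0.355 ± 0.00707 in shU2AF2, against 0.19 ± 0.03 in shControl (limma, adjusted p = 0.00644 and 0.00194), with a last exon that overlaps NHP2. ARMC8 had 0.69 and 0.50 in shU2AF2, against 0.30, 0.36 and 0.33 in shControl, a rise of 0.265 (limma, adjusted p = 0.0117). MKLN1 had 0.65 and 0.77 in shPABPN1, against 0.49, 0.55 and 0.40 in shControl, a rise of 0.23 (limma, adjusted p = 0.0446). The last exon of MKLN1 overlaps AC008264.2, and its call did not hold without shControl replicate 1 (adjusted p = 0.0554). GID8 and RMND5B thus rose in both splicing factor knockdowns, where WDR26 had its lowest values.

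Among 18 SUMO pathway genes, 3 of 108 tests in the 6 comparisons were called, beside 3.34% of all tests. They were 1 rise in shSF3B4, and 1 rise and 1 fall in shPABPN1. The fall was that of SENP6, another SUMO protease, to 0.035 ± 0.00707, against 0.0733 ± 0.0115 in shControl (limma, adjusted p = 0.0266). Among 10 genes of ubiquitin activation in the table, 3 of 60 tests were called. They were 1 rise and 1 fall in shU2AF2, and 1 rise in shPABPN1. BIRC6, a ligase that works with UBA6, fell by 0.128 in shU2AF2 (limma, adjusted p = 0.0322). That call did not hold without shControl replicate 1 (adjusted p = 0.0699). SEC23IP, in the phospholipase family of DDHD1, rose by 0.0717 in shPABPN1 (adjusted p = 0.0468). The calls of the other named partners held without that library. With the compared groups alone in the fit, 0 of all genes were called in shPABPN1, so no partner call in that comparison held. No gene was called by limma in the lists of cullin 2 ligases, the TSC22 family with its partners, or the NC2 and ATAC complexes. Those lists held 10, 9 and 14 genes in the table, with 11, 4 and 9 tests at an unadjusted p under 0.05 among 60, 52 and 84, beside 14.2% of all tests in the 6 comparisons.

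The profile of the 8 genes over the 7 groups was compared with that of 3247 other genes that were complete and whose group means spanned at least 0.2. Of the 8 genes, UBA6, TSC22D2 and DR1 spanned less than that themselves. The mean profile, each gene centred on its own mean, was highest in shPABPN1 at 0.148, followed by shPCBP2 at 0.105 and shZNF384 at 0.0237, and lowest in shSF3B4 at −0.144, with shU2AF2 at −0.0763, shHDAC1 at −0.042 and shControl at −0.0145. DDHD1, with its wide range, weighs most in it. Over the 7 group means the members correlated with this mean at r = 0.826 in SENP2 to 0.987 in PURA, which is a description, since each is part of it.

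Outside the 8, the highest correlations over the 7 group means were those of IGF1R, a receptor of insulin-like growth factor, at r = 0.997, MED7, a Mediator subunit, at 0.9903, the zinc finger genes ZNF445 and ZNF766 at 0.979 each, and MSI2, an RNA-binding protein, at 0.971. IGF1R averaged 0.61 in shSF3B4, 0.68 in shU2AF2, 0.95 in shPABPN1, 0.875 in shPCBP2, 0.795 in shZNF384 and 0.715 in shHDAC1, against 0.763 in shControl. MED7 averaged 0.205 in shSF3B4 and 0.425 in shPABPN1, against 0.28 in shControl, and ZNF766 0.055 and 0.345, against 0.19. By group mean all 5 genes were lowest in shSF3B4, and shPABPN1 was highest in all but ZNF445, where shPCBP2 averaged 0.565 and shPABPN1 0.55. By library, shSF3B4 overlapped shU2AF2 in IGF1R and ZNF766, and shU2AF2, shHDAC1 and shControl in MED7. At the top shPABPN1 overlapped shPCBP2 in all but MSI2. The last exon of ZNF445 overlaps C3orf86. These are the best of many correlations over 7 points that share libraries, and they carry no test.

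**Figure D5:**
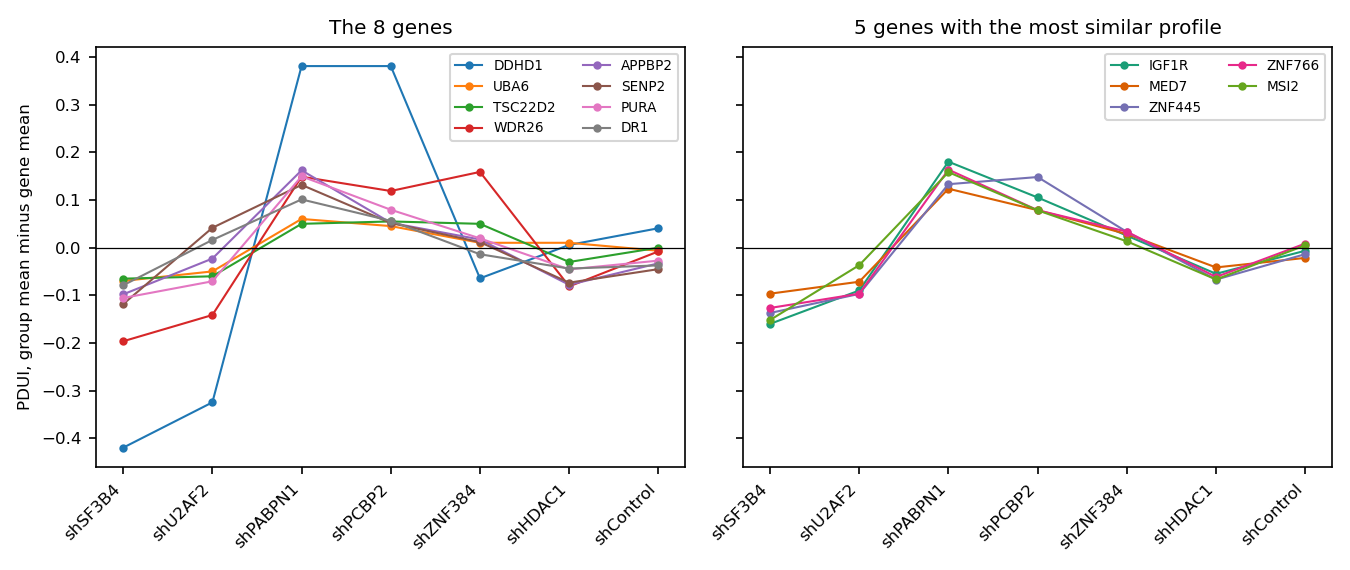
Group mean of PDUI minus the gene's mean over the 7 groups (vertical axis), for the 8 genes (left) and the 5 genes with the most similar profile (right). In both panels the lines are low in shSF3B4 and high in shPABPN1 and shPCBP2, with DDHD1 reaching furthest and SENP2 and DR1 above their own means in shU2AF2.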

How the data were processed

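PDUI was deposited by the authors as a fraction per transcript and library, for 13056 transcripts of 13056 genes on genome build hg38, per the submitters' processing notes. Not given in the sources used here: aligner, site caller and annotation. Without read counts the depth is unknown, so no interval or floor is given. Per the labels' protocols, poly(A) RNA was taken with oligo(dT) beads; a nuclear RNA step and a total RNA kit are both named. Titles gave the groups. The shSF3B4 columns are numbered differently in titles and descriptions and were used by group.

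Values entered limma 3.58.1 (R 4.3.3) untransformed, with 1 mean per group over all 15 libraries, eBayes with a trend, 8 residual degrees of freedom and a prior of 1.06. A gene was tested where both knockdown libraries and at least 2 shControl libraries had a value. Tests were two-sided, with Benjamini-Hochberg adjustment over all genes tested, and called at an adjusted p under 0.05. The fit was tested on simulated data. Of the table's transcript identifiers, 97.3% were found in GENCODE release 29, and hexamers were read from its sequences.

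The genes and lists were chosen with earlier results of these data known. Named were the 8 genes, at most 4 called partners per list and the 5 most similar profiles; 2 called partners are counted but not reported here by name. Alternatives were centring, a logit scale, complete genes, the compared groups alone, a replicate block and leaving out each library.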

Additional observations from a re-analysis of the deposited data

How the results depend on the processing

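Counts of genes called in all moved most. With libraries centred on their medians they were 210 in shSF3B4, 391 in shU2AF2, 362 in shPABPN1, 4 in shPCBP2, 0 in shZNF384 and 0 in shHDAC1, and 15 by the F-test among shPCBP2, shZNF384 and shHDAC1. With the compared groups alone in the fit they were 186, 327, 0, 2 and 5 in shSF3B4, shU2AF2, shPABPN1, shPCBP2 and shZNF384, and 33 by the F-test. On the logit scale 13 were called in shHDAC1. Same-numbered replicates were not shown to be paired: deviations correlated at −0.0116 to 0.0451, above 0 for replicate 1 in 12 of 15 group pairs. All 12 numbered libraries correlated best with a library of their own number. With 2 libraries in a group their deviations mirror each other, so these 12 matches are not independent. With a replicate block, counts were 531 in shU2AF2, 232 in shPABPN1, 7 in shPCBP2, 3 in shZNF384 and 6 in shHDAC1, and 64 by the F-test. Leaving out 1 library gave 429 to 536 in shSF3B4, 573 to 788 in shU2AF2, 343 to 1048 in shPABPN1, 46 to 119 in shPCBP2, 22 to 140 in shZNF384, 4 to 51 in shHDAC1 and 71 to 165 by the F-test. Why the counts moved was not tested, and the settings that removed libraries also removed degrees of freedom.

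For the 8 genes, all 8 differences of shPCBP2 from shControl and from shHDAC1 stayed above 0 with centring. The other alternatives could not turn them, since in all 8 genes the libraries of these groups did not overlap. Of the 7 calls in shPCBP2 against shControl, 7 held on the logit scale and with complete genes alone, 0 with centring, with the compared groups alone and with the block, and 2 to 4 with 1 library left out. Of the F-test's 7 calls, 7 held on the logit scale and with complete genes, 1 with centring, 1 with the block and 0 with the 3 groups alone. The calls between pairs of these groups are given with their losses beside the results. With centring, APPBP2 in shU2AF2 turned to −0.0133, UBA6, PURA and DR1 in shZNF384 to −0.0317, −0.00167 and −0.025, and UBA6 in shHDAC1 to −0.00167. TSC22D2 in shPCBP2 minus shZNF384 ran from −0.01 to 0.02 with 1 shPCBP2 library left out. With 2 libraries a group, a lone library left in a group was taken to vary like the others.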

Other observations

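Long 3' UTRs, which all 8 genes share, were set against the calls in all other coding genes, a division at 3707 bases chosen after the lengths of the 8 were seen. In shPCBP2 minus shControl, 4.02% of 1442 genes with a 3' UTR at least that long were called higher and 0.069% lower, against 0.473% and 0.118% of 8450 genes with a shorter one. In shZNF384 the shares called higher were 5.19% of 1444 and 0.821% of 8521 genes. In shPABPN1 they were 14% of 1446 and 2.54% of 8374 genes, with 0.484% and 0.788% called lower. Without shControl replicate 1, chosen after the data were seen, the shares called higher in the long and the shorter genes were 1.81% and 0.226% in shPCBP2, 2.24% and 0.248% in shZNF384 and 14.3% and 2.88% in shPABPN1. In shPABPN1 those called lower were then 1.26% and 5.24%. These shares were not computed under the other alternatives. With centring, the genes called in all were 4 in shPCBP2, 0 in shZNF384 and 362 in shPABPN1. With the compared groups alone, 0 were called in shPABPN1.

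In both splicing factor knockdowns long 3' UTRs went with calls in either direction. In shSF3B4, 11.3% of 1430 long genes were called higher and 3.15% lower, against 3.42% and 0.665% of 8420 shorter ones. In shU2AF2, 15.4% of 1413 were called higher and 2.97% lower, against 4.61% and 1.33% of 8440. The same shares without shControl replicate 1 were 8.855% and 2.67%, against 2.78% and 0.814%, in shSF3B4, and 13.4% and 2.42%, against 3.915% and 1.48%, in shU2AF2. In shHDAC1 the 3 genes called, all lower, were long. Median PDUI in shControl was 0.503 to 0.512 in the long genes and 0.57 to 0.573 in the shorter ones. These comparisons share the shControl libraries, the division carries no test, and the part of length in the values of the 8 genes was not tested.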
